A study of Rattus norvegicus with 3 samples.

Results

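Potassium channel genes of the rat retina were examined across 3 libraries of ribosomal-RNA-depleted total RNA. Members were the genes whose symbol begins with Kcn, then lower-case letters and a digit, except Kcnj10, and 90 of the 32883 genes in the tables met this rule. By symbol they fell into 38 voltage-gated pore-forming or modifier subunits, 14 inward rectifiers, 14 two-pore channels, 8 calcium-activated and related channels and 16 auxiliary subunits. The HIOP_GSK library came from the retina of Sprague-Dawley rats aged 60 days after birth, collected 12 h after ischemia (an intraocular pressure of 110 mmHg kept up for 60 min). These animals were given a drug named only as GSK in the anterior chamber 24 h before the ischemia. The HIOP library came from the same strain, age and pressure procedure without the drug. The CTL library is labelled as untreated retina of that strain and age, although the protocol also speaks of sham surgery, with needle insertion at 2.66 kPa. No library with the vehicle of the drug alone is among the 3, and how many animals each library holds is not given in the sources used here. High pressure in the eye stops retinal blood flow, and its release is followed by reperfusion.

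Potassium channels let potassium ions cross the cell membrane and so set the resting potential and shape electrical signals. Voltage-gated channels open on depolarization, and inward rectifiers and two-pore channels carry resting currents. Calcium-activated channels couple calcium entry to potassium outflow, and auxiliary subunits alter the gating or trafficking of the pore. In photoreceptors, the modifier subunit Kv8.2 (Kcnv2) is part of the channel that carries an outward current in the inner segment. Modifier subunits, also called silent subunits (the Kcnf, Kcng, Kcns and Kcnv genes), form no working channel alone and act in complexes with pore-forming subunits.

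The deposited counts summed to 15132754 in HIOP_GSK, 17221510 in HIOP and 16090064 in CTL. Because each group has 1 library, differences cannot be set against replicates and no p-values appear. The intervals below are 95% exact (Clopper-Pearson) intervals of a ratio of counts that cover counting error only. Levels are CPM (counts scaled to library size), or the deposited TPM (transcript abundance per length) where genes are set against each other. Of the 90 members, 66 reached 1 CPM in at least 1 library and were compared. Kcng2 and Kcne5 passed only through CTL, Kcnn4 only through HIOP_GSK and Kcnk5 only through the injured libraries. None of the marker genes of rods, cones, bipolar, Müller, ganglion, amacrine and horizontal cells had 0 counts in any library. The summed CPM of 6 ganglion cell markers was 227 in HIOP_GSK, 201 in HIOP and 455 in CTL, and that of 5 amacrine markers was 479 in HIOP_GSK, 400.1 in HIOP and 857 in CTL. The 5 Müller glia markers summed to 1381 CPM in HIOP_GSK, 1107 in HIOP and 2438 in CTL, and 4 of them were lower by 2-fold or more in HIOP than in CTL, with a median log2 ratio of -2.32. The 5 bipolar markers summed to 1086 CPM in HIOP_GSK, 1193 in HIOP and 1734 in CTL. Markers of eye tissues other than retina were unequal too. The 5 lens markers summed to 5849 CPM in HIOP_GSK, 1890.3 in HIOP and 722 in CTL. The 4 corneal epithelium markers summed to 55.2 CPM in HIOP_GSK, 12.5 in HIOP and 261 in CTL. The part of these shifts in the values below was not tested, and in whole tissue fewer cells of a type and less RNA per cell cannot be told apart.

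Most potassium channel genes had a lower level in HIOP than in CTL. Of the 66 compared, 20 were lower by 2-fold or more and 2 higher by 2-fold or more, where 8.04% of all 15543 compared genes were lower by 2-fold or more and 9.0% higher by 2-fold or more. As shares, 30.3% of the members were lower by 2-fold or more and 3.03% higher by 2-fold or more. Their median log2 ratio was -0.68, against 0.00 over all genes compared. The counting interval lay below 1 for 48 members, above 1 for 6 and included 1 for 12. In HIOP_GSK over CTL, which shares CTL with the first comparison, 16 members were lower by 2-fold or more and 4 higher by 2-fold or more (background 6.32% and 10.4%), with a median of -0.66 against 0.00. In HIOP_GSK over HIOP, 6 members were higher by 2-fold or more and none lower by 2-fold or more (background 4.56% and 1.69%), with a median of 0.04 against 0.00. Read by library, 51 of the 66 members (77.3%) had their highest CPM in CTL, where 42.2% of all compared genes did.

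Among the members with the highest deposited TPM in CTL were the inward rectifier gene Kcnj14 (Kir2.4) at 143.92 TPM and Kcnv2 at 84.49 TPM. They took 11.02% and 6.47% of the summed TPM of all members. In both injured libraries Kcnv2 ranked above Kcnj14, with Kcnv2 at 161.65 TPM in HIOP_GSK and 142.95 TPM in HIOP. Kcnma1, the pore of the large-conductance calcium-activated (BK) channel, had 27.4 TPM in HIOP_GSK, 29.2 in HIOP and 54.3 in CTL. Among the 12 highest members of each library, Kcng4 was listed in HIOP_GSK at 16.6 TPM and in HIOP at 17.3 TPM, and it had 1.95 TPM in CTL.

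**Figure D1:**
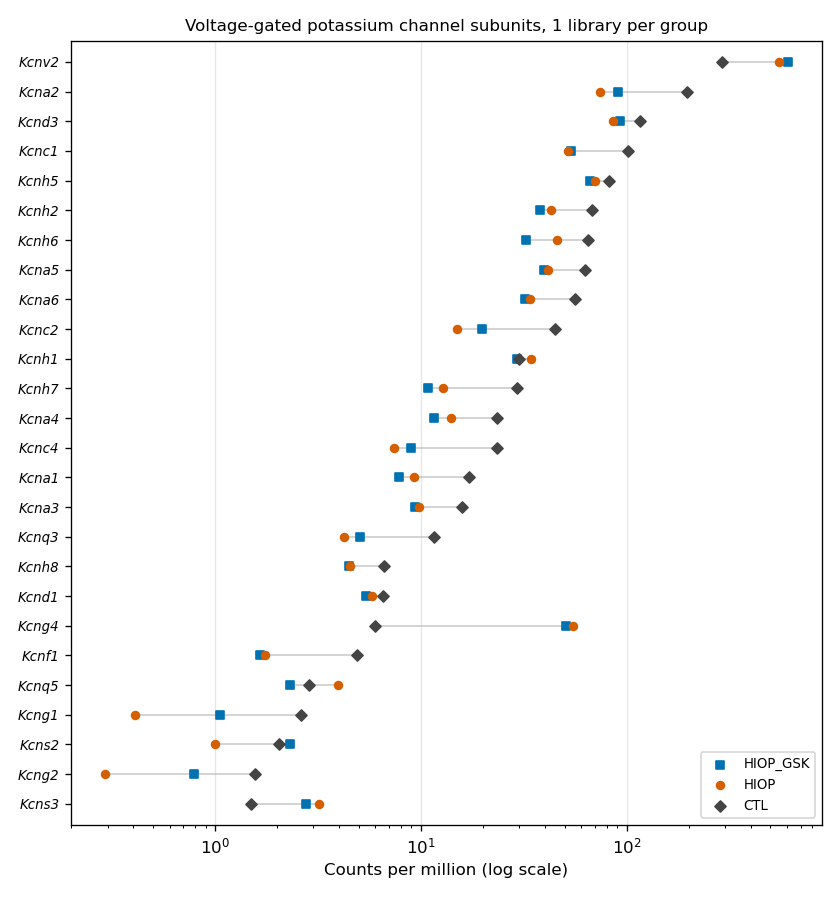
CPM on a log scale for 26 of the 30 compared voltage-gated subunits, with 1 symbol per library and genes ordered by their level in CTL. Kcng4 lies at 50.7 CPM in HIOP_GSK and 54.9 in HIOP, far to the right of its 5.96 in CTL, whereas most other genes have their rightmost symbol in CTL.

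The modifier subunits gave both the highest and the lowest ratios against CTL among the compared voltage-gated genes. Of 10 such genes 7 were compared, and in HIOP over CTL 2 were higher by 2-fold or more and 3 lower by 2-fold or more. Over all compared genes these shares were 9.0% and 8.04%. This split of the class was made after the values were seen. Kcng4, which encodes Kv6.4, had 771 counts in HIOP_GSK, 940 in HIOP and 96 in CTL. Both injured libraries were far above CTL, by a ratio of 8.496 in HIOP_GSK (6.86 to 10.6) and 9.21 in HIOP (7.46 to 11.5), and HIOP_GSK over HIOP had a log2 ratio of -0.12. Kcnv2, in which loss-of-function mutations cause a human cone dystrophy with supernormal rod responses, had 9246 counts in HIOP_GSK, 9436 in HIOP and 4669 in CTL. Its ratio was 2.09 in HIOP_GSK over CTL (2.02 to 2.17) and 1.90 in HIOP over CTL (1.83 to 1.97), so that it passed 2-fold in the first and stayed just short of it in the second. Kcns3 (Kv9.3) had 42 counts in HIOP_GSK, 55 in HIOP and 24 in CTL, with a ratio of 2.15 in HIOP over CTL (1.31 to 3.64). With the deposited TPM, Kcns3 was below 2-fold.

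The other modifier subunits stood below CTL in HIOP. Kcng1 (Kv6.1) had 16 counts in HIOP_GSK, 7 in HIOP and 42 in CTL and was 6.38-fold lower in HIOP than in CTL (2.84 to 16.8). Kcng2 (Kv6.2) had 12, 5 and 25 counts in HIOP_GSK, HIOP and CTL and was 5.32-fold lower in HIOP (1.9995 to 17.8). Because Kcng2 entered the comparison only through CTL, it could stand only below CTL. Kcnf1 (Kv5.1) had 25 counts in HIOP_GSK, 30 in HIOP and 79 in CTL and was 2.99-fold lower in HIOP_GSK than in CTL (1.88 to 4.89). Kcns2 (Kv9.2), with 35 counts in HIOP_GSK, 17 in HIOP and 33 in CTL, was low in HIOP alone. The counts of these 4 genes are small, and the ratios of Kcng2 carry the widest intervals of them. Kcng4 and Kcnv2 together summed to 658 CPM in HIOP_GSK, 606 in HIOP and 296 in CTL. The 6 rod markers, of cells in which Kcnv2 is known to act, had a median log2 ratio against CTL of -0.73 for HIOP_GSK and -0.13 for HIOP, and the 5 cone markers -1.43 for HIOP_GSK and -1.12 for HIOP. Their part in the Kcnv2 values was not tested.

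The 250 bases before the annotated start of Kcng4 and Kcnv2 are shown because these were the 2 modifier genes highest in HIOP_GSK over CTL and both also lay above CTL in HIOP. In HIOP over CTL, Kcns3 ranked between them on fewer counts. They are RefSeq sequences of the rat build GRCr8, which differs from the build named for the files, and are written 5′ to 3′ on the strand of the gene. A script searched both strands for TAATCC, a core letter sequence bound by the photoreceptor factor CRX, for TGANTCA, bound by AP-1 factors, and for TTCNNNGAA, bound by STAT factors. Capitals mark a match.
Kcng4, chr19:64597889-64598138, minus strand: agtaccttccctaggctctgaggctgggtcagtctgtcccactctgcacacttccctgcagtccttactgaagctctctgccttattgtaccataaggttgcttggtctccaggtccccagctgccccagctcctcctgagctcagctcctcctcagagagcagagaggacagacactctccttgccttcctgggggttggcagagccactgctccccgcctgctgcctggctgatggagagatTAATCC
Kcnv2, chr1:234412924-234413173, plus strand: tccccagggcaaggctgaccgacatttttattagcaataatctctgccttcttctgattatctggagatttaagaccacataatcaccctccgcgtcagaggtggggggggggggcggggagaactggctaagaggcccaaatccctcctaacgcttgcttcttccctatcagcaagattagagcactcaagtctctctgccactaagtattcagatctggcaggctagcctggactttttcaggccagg
Kcng4 holds 1 match to TAATCC, which starts 6 bases before the annotated start, and none to the others, and Kcnv2 holds none of the 3. Of 33469 promoter windows of that length, 6.34% hold TAATCC, 6.34% hold TGANTCA and 7.67% hold TTCNNNGAA. Of 67 windows belonging to 61 members, 3, 2 and 6 hold them. A match or its absence in this window says nothing about binding.

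Pore-forming voltage-gated subunits were lower in the injured libraries, with none higher by 2-fold or more. Of 28 such genes 23 were compared, and 6 were lower by 2-fold or more in HIOP than in CTL and 7 in HIOP_GSK than in CTL. Over all compared genes these shares were 8.04% and 6.32%. In the Kv3 family, whose channels allow neurons to fire at high rates, Kcnc4 had 8.94 CPM in HIOP_GSK, 7.36 in HIOP and 23.4 in CTL and was 3.17-fold lower in HIOP (2.59 to 3.91). Kcnc2 had 19.8 CPM in HIOP_GSK, 14.9 in HIOP and 44.7 in CTL and was 3.00-fold lower in HIOP (2.60 to 3.48). Kcnc1 differed less, at 53.4 CPM in HIOP_GSK, 52.1 in HIOP and 102 in CTL. All of these genes had their highest level in CTL.

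In the Kv1 family, whose members set axonal and presynaptic excitability, Kcna2 (Kv1.2) had 1380 counts in HIOP_GSK, 1272 in HIOP and 3158 in CTL. It was 2.64-fold lower in HIOP than in CTL (2.47 to 2.82) and 2.16-fold lower in HIOP_GSK than in CTL (2.03 to 2.31). Kcna1 had 7.82 CPM in HIOP_GSK, 9.23 in HIOP and 17.1 in CTL and was 2.19-fold lower in HIOP_GSK than in CTL (1.76 to 2.74). All 6 compared Kv1 genes had negative log2 ratios against CTL, with a median of -0.91 for HIOP_GSK and -0.73 for HIOP. Kcna5 (Kv1.5), the highest Kv1 gene by TPM, had 39.8 CPM in HIOP_GSK, 41.2 in HIOP and 62.6 in CTL. Kcna3, which is also expressed in immune cells, had 9.40, 9.81 and 15.8 CPM in HIOP_GSK, HIOP and CTL and was not among those past 2-fold.

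The M-current, a slow brake on neuronal firing, is formed by Kv7 subunits. Kcnq3 had 5.06 CPM in HIOP_GSK, 4.21 in HIOP and 11.6 in CTL and was 2.76-fold lower in HIOP than in CTL (2.09 to 3.68). Kcnq5 was highest in HIOP, with 35 counts in HIOP_GSK, 68 in HIOP and 46 in CTL. Of the EAG and ERG channels (Kcnh), Kcnh7 had 10.8 CPM in HIOP_GSK, 12.7 in HIOP and 29.3 in CTL and was 2.30-fold lower in HIOP than in CTL (1.95 to 2.71). Kcnh6, another ERG gene, had 32.3 CPM in HIOP_GSK, 45.9 in HIOP and 65.2 in CTL and was lower by 2-fold or more only in HIOP_GSK over CTL, by 2.02-fold (1.81 to 2.25). Kcnh1 had the flattest levels of its family, at 29.2 CPM in HIOP_GSK, 34.2 in HIOP and 30.1 in CTL. The A-type channel genes Kcnd1 and Kcnd3 had log2 ratios of -0.17 and -0.44 in HIOP over CTL.

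**Figure D2:**
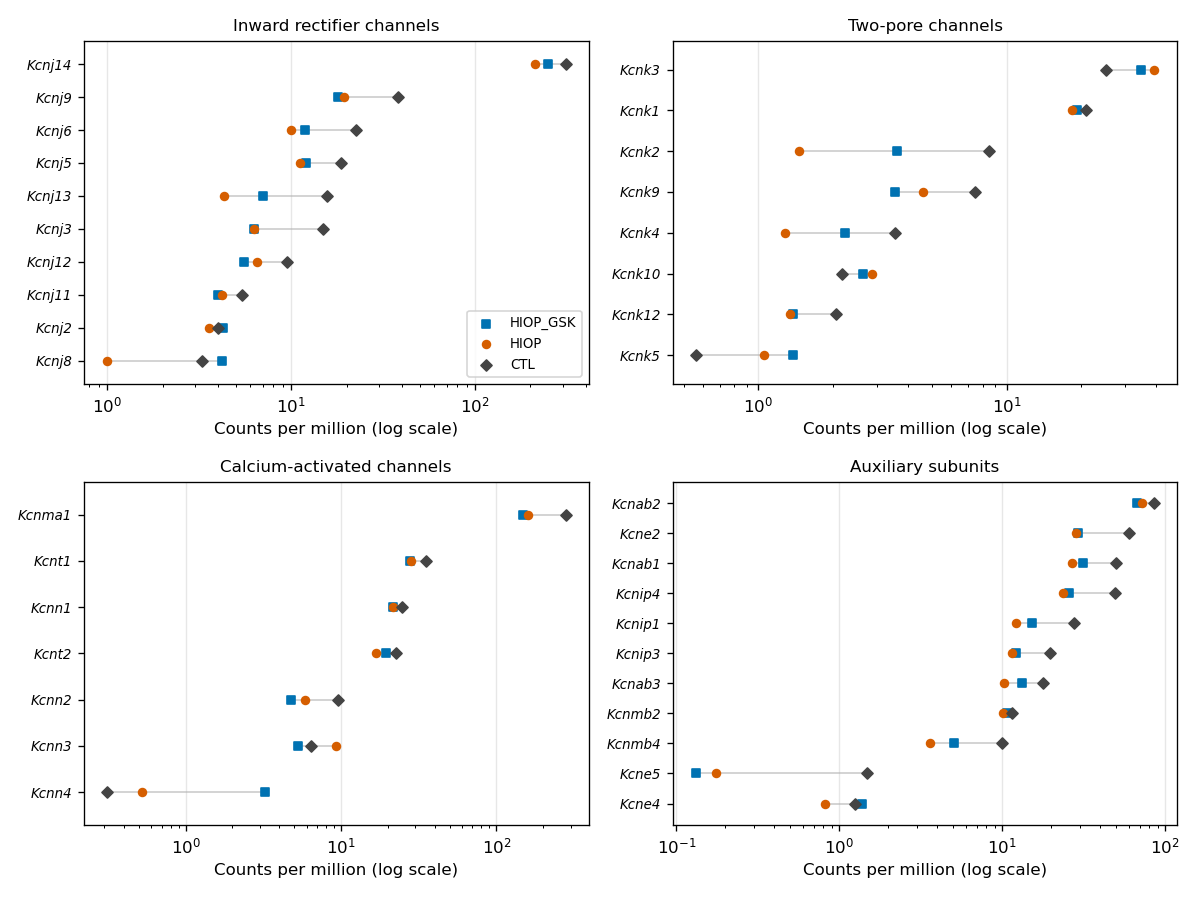
CPM on a log scale for the compared inward rectifiers, two-pore channels, calcium-activated channels and auxiliary subunits, with 1 symbol per library. The HIOP symbol of Kcnj8 lies apart from the other libraries at 0.993 CPM, and the HIOP_GSK symbol of Kcnn4 lies apart at 3.22 CPM.

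All 10 compared inward rectifiers had a lower level in HIOP than in CTL, with a median log2 ratio of -0.86, and 4 were lower by 2-fold or more. Of all compared genes, 8.04% were lower by 2-fold or more there. Kcnj13 (Kir7.1), the channel of the apical membrane of the pigment epithelium, had 107 counts in HIOP_GSK, 74 in HIOP and 252 in CTL. It was 3.62-fold lower in HIOP than in CTL (2.78 to 4.76) and 2.23-fold lower in HIOP_GSK than in CTL (1.77 to 2.82). Of 5 pigment epithelium markers 4 were compared, all 4 were lower by 2-fold or more in HIOP than in CTL, and their list summed to 195 CPM in HIOP_GSK, 137 in HIOP and 333 in CTL. None of those markers had 0 counts, and the part of pigment epithelium in the Kcnj13 values was not tested.

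Kcnj8 (Kir6.1), the pore of the ATP-sensitive channel of pericytes and smooth muscle, had 64 counts in HIOP_GSK, 17 in HIOP and 53 in CTL. HIOP was the low library, 3.32-fold below CTL (1.89 to 6.11), and HIOP_GSK was 4.24-fold above HIOP (2.45 to 7.71), with a ratio of 1.28 over CTL (0.874 to 1.87). Abcc9, which encodes the sulfonylurea receptor that pairs with Kir6.1, had 314 counts in HIOP_GSK, 149 in HIOP and 364 in CTL and thus had its low value in the same library. Of the other pericyte markers, Pdgfrb, Notch3 and Rgs5 also had their lowest CPM in HIOP, and Cspg4 had its lowest in CTL. Pdgfrb had 487 counts in HIOP_GSK, 417 in HIOP and 563 in CTL, and Rgs5 had 145, 151 and 391 counts in HIOP_GSK, HIOP and CTL. Scaled to library size, Rgs5 had 9.53 CPM in HIOP_GSK, 8.82 in HIOP and 24.3 in CTL. Its injured libraries were close, with a ratio of 1.08 in HIOP_GSK over HIOP (0.854 to 1.37). Notch3 had 272 counts in HIOP_GSK, 208 in HIOP and 315 in CTL, whereas Cspg4 was above CTL in both injured libraries, with 231 counts in HIOP_GSK, 166 in HIOP and 106 in CTL. The 5 markers together summed to 95.2 CPM in HIOP_GSK, 63.7 in HIOP and 108 in CTL, none was at 0, and their part in the Kcnj8 values was not tested. Kcnj11 (Kir6.2), the pore of the ATP-sensitive channel of neurons, had 61 counts in HIOP_GSK, 72 in HIOP and 87 in CTL.

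The G-protein-gated channel genes Kcnj3, Kcnj5, Kcnj6 and Kcnj9, which act downstream of inhibitory receptors, had their highest level in CTL without exception. Kcnj3 had 6.31 CPM in HIOP_GSK, 6.31 in HIOP and 14.8 in CTL and was 2.35-fold lower in HIOP than in CTL (1.87 to 2.98). Kcnj6 was 2.24-fold lower in HIOP than in CTL (1.86 to 2.70), and Kcnj9 was 2.13-fold lower in HIOP_GSK than in CTL (1.84 to 2.46) and 1.98-fold in HIOP (1.73 to 2.27). Kcnj14 had 3778 counts in HIOP_GSK, 3627 in HIOP and 4998 in CTL and was 1.47-fold lower in HIOP (1.40 to 1.53). Kcnj2 (Kir2.1) had 65 counts in HIOP_GSK, 61 in HIOP and 64 in CTL. For comparison, Kcnj10 (Kir4.1), the inward rectifier of Müller glia and not a member here, had 93 counts in HIOP_GSK, 12 in HIOP and 312 in CTL.

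Two-pore channels lay on both sides of CTL. Of the 8 compared, 2 were lower by 2-fold or more in HIOP than in CTL and none higher by 2-fold or more, with a median log2 ratio of -0.38. The background was 8.04% lower and 9.0% higher among all compared genes. Kcnk2 (TREK-1), which responds to membrane stretch and polyunsaturated fatty acids, had 55 counts in HIOP_GSK, 25 in HIOP and 137 in CTL. It was 5.83-fold lower in HIOP than in CTL (3.79 to 9.32), and HIOP_GSK lay between the others, 2.48-fold above HIOP (1.52 to 4.15). Kcnk4 (TRAAK), a related mechanosensitive channel, had the same order with 34 counts in HIOP_GSK, 22 in HIOP and 57 in CTL and was 2.76-fold lower in HIOP than in CTL (1.66 to 4.73). Kcnk10 (TREK-2), from the same subfamily, had 40 counts in HIOP_GSK, 49 in HIOP and 35 in CTL.

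The acid-sensitive channel gene Kcnk3 (TASK-1) had 530 counts in HIOP_GSK, 675 in HIOP and 404 in CTL and was 1.57-fold higher in HIOP than in CTL (1.39 to 1.78). Its relative Kcnk9 (TASK-3) had 54 counts in HIOP_GSK, 79 in HIOP and 120 in CTL and was 2.10-fold lower in HIOP_GSK than in CTL (1.51 to 2.95). The pair thus stood on opposite sides of CTL. Kcnk1 (TWIK-1) had 19.2 CPM in HIOP_GSK, 18.3 in HIOP and 20.9 in CTL. Kcnk5 had 21 counts in HIOP_GSK, 18 in HIOP and 9 in CTL, with a ratio of 2.47 in HIOP_GSK over CTL (1.08 to 6.12). Kcnk13 (THIK-1), a channel of microglia, had 9 counts in HIOP_GSK, 5 in HIOP and 7 in CTL and was not compared.

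No compared calcium-activated channel was lower by 2-fold or more in any of the 3 comparisons. Over all compared genes that share was 8.04% in HIOP over CTL, 6.32% in HIOP_GSK over CTL and 1.69% in HIOP_GSK over HIOP. In a class this small, the absence of such a gene does not set it apart from all genes. Kcnn2 fell just short of the limit, at 1.99-fold lower in HIOP_GSK than in CTL (1.5 to 2.67). Of 8 genes 7 were compared, with a median log2 ratio against CTL of -0.26 for HIOP_GSK and -0.31 for HIOP. The class includes the sodium-activated channel genes Kcnt1 and Kcnt2, and without these and Kcnu1 the medians were -0.26 for HIOP_GSK and -0.19 for HIOP. Kcnma1 had 2266 counts in HIOP_GSK, 2728 in HIOP and 4490 in CTL and was 1.75-fold lower in HIOP than in CTL (1.67 to 1.84) and 1.87-fold lower in HIOP_GSK than in CTL (1.78 to 1.97). Of the small-conductance channels, which generate afterhyperpolarizations, Kcnn1 had 21.7 CPM in HIOP_GSK, 21.6 in HIOP and 24.7 in CTL. Kcnn2 had 4.80 CPM in HIOP_GSK, 5.90 in HIOP and 9.57 in CTL, while Kcnn3 was highest in HIOP, with 81 counts in HIOP_GSK, 158 in HIOP and 103 in CTL.

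Kcnn4, the intermediate-conductance channel of blood and immune cells and of some epithelia, had 49 counts in HIOP_GSK, 9 in HIOP and 5 in CTL. HIOP_GSK was the high library, by a ratio of 6.13 over HIOP (2.98 to 14.2) and 10.4 over CTL (4.15 to 33.3). Kcnn4 entered the comparison only through that library, at 3.22 CPM, with 0.526 in HIOP and 0.311 in CTL. The 6 microglia markers summed to 80.5 CPM in HIOP_GSK, 25.8 in HIOP and 33.6 in CTL, and 5 of them were higher by 2-fold or more in HIOP_GSK than in HIOP. The 5 neutrophil markers summed to 138 CPM in HIOP_GSK, 123 in HIOP and 1.18 in CTL, with Mmp8, S100a8 and Cxcr2 at 0 counts in CTL. All 5 lens markers and all 4 corneal epithelium markers were also higher by 2-fold or more in HIOP_GSK than in HIOP. The part of these tissues and cells in the Kcnn4 values was not tested.

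Auxiliary subunits had the lowest class median in HIOP over CTL, -0.89, and all 11 compared genes of 16 had a negative log2 ratio there. Against CTL, 5 were lower by 2-fold or more in HIOP and 2 in HIOP_GSK. The background was 8.04% and 6.32% of all compared genes. Kcne5 had 2 counts in HIOP_GSK, 3 in HIOP and 24 in CTL, a ratio of 0.0882 in HIOP_GSK over CTL (0.0101 to 0.355) and 0.118 in HIOP over CTL (0.0227 to 0.387). It is part of both counts of lower genes, but it entered the comparison only through CTL and so could stand only below CTL. Kcne2, which modifies ERG and Kv7 channels and has the highest TPM of the auxiliary genes in CTL, had 447 counts in HIOP_GSK, 485 in HIOP and 973 in CTL. It was 2.06-fold lower in HIOP_GSK than in CTL (1.84 to 2.31) and 2.13-fold lower in HIOP (1.91 to 2.38). Both injured libraries were thus below CTL for these 2 genes.

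Among the KChIP genes, calcium-binding partners of A-type Kv4 channels, Kcnip1 had 15.2 CPM in HIOP_GSK, 12.2 in HIOP and 27.8 in CTL, and Kcnip4 had 25.8 CPM in HIOP_GSK, 23.6 in HIOP and 49.1 in CTL. They were 2.29-fold (1.94 to 2.71) and 2.08-fold (1.84 to 2.35) lower in HIOP than in CTL. Kcnip3, also known as the transcriptional repressor DREAM, had 12.2 CPM in HIOP_GSK, 11.5 in HIOP and 19.7 in CTL. Of the BK channel beta subunits, Kcnmb4 had 77 counts in HIOP_GSK, 62 in HIOP and 160 in CTL and was 2.74-fold lower in HIOP than in CTL (2.04 to 3.74). Kcnmb2 is uncertain, because its counts were 164 in HIOP_GSK, 173 in HIOP and 186 in CTL, whereas its deposited TPM was 5.98 in HIOP_GSK, 5.92 in HIOP and 13.81 in CTL. The Kvbeta gene Kcnab2, which encodes a cytosolic partner of Kv1 channels, had 67.2 CPM in HIOP_GSK, 72.7 in HIOP and 86.2 in CTL.

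**Figure D3:**
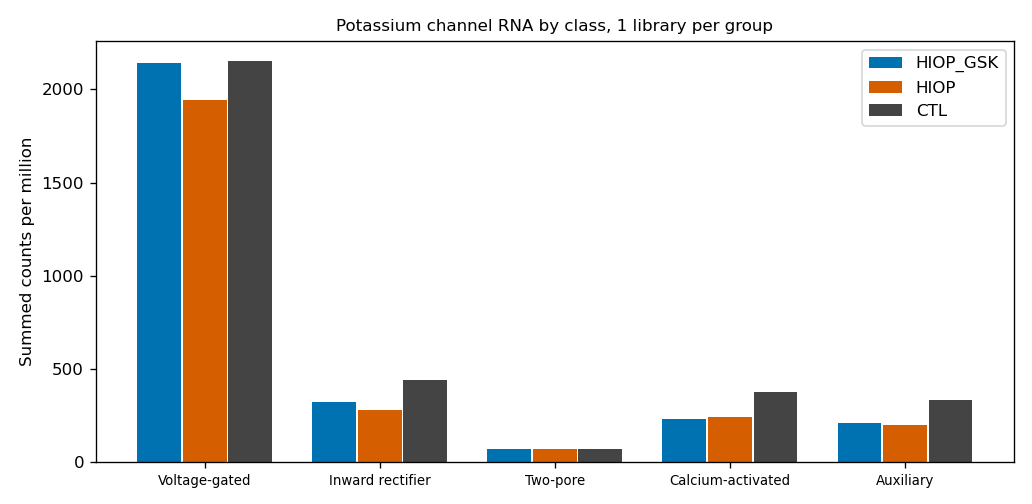
Summed CPM of the 5 classes, with 1 bar per library. CPM is not per length, so bars compare libraries within a class. The inward rectifier, calcium-activated and auxiliary bars are highest in CTL, and the two-pore bars lie between 69.9 and 71.7 CPM.

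Summed over all 90 members, potassium channel genes took 0.299% of counts in HIOP_GSK, 0.272% in HIOP and 0.338% in CTL. The voltage-gated sum was 2143 CPM in HIOP_GSK, 1942 in HIOP and 2151 in CTL, of which Kcnv2 made up 608 CPM in HIOP_GSK, 551 in HIOP and 290.1 in CTL. The inward rectifier sum was 323 CPM in HIOP_GSK, 279 in HIOP and 444 in CTL, a ratio of 0.628 in HIOP over CTL (0.606 to 0.652). Calcium-activated genes summed to 231 CPM in HIOP_GSK, 242 in HIOP and 377 in CTL, and auxiliary genes to 212, 201 and 336 CPM in HIOP_GSK, HIOP and CTL. The two-pore sum had a ratio of 0.992 in HIOP over CTL (0.914 to 1.08), with Kcnk3 higher and 5 of the 8 compared two-pore genes lower. A sum follows its most abundant genes, and the class medians above weigh each gene equally.

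**Figure D4:**
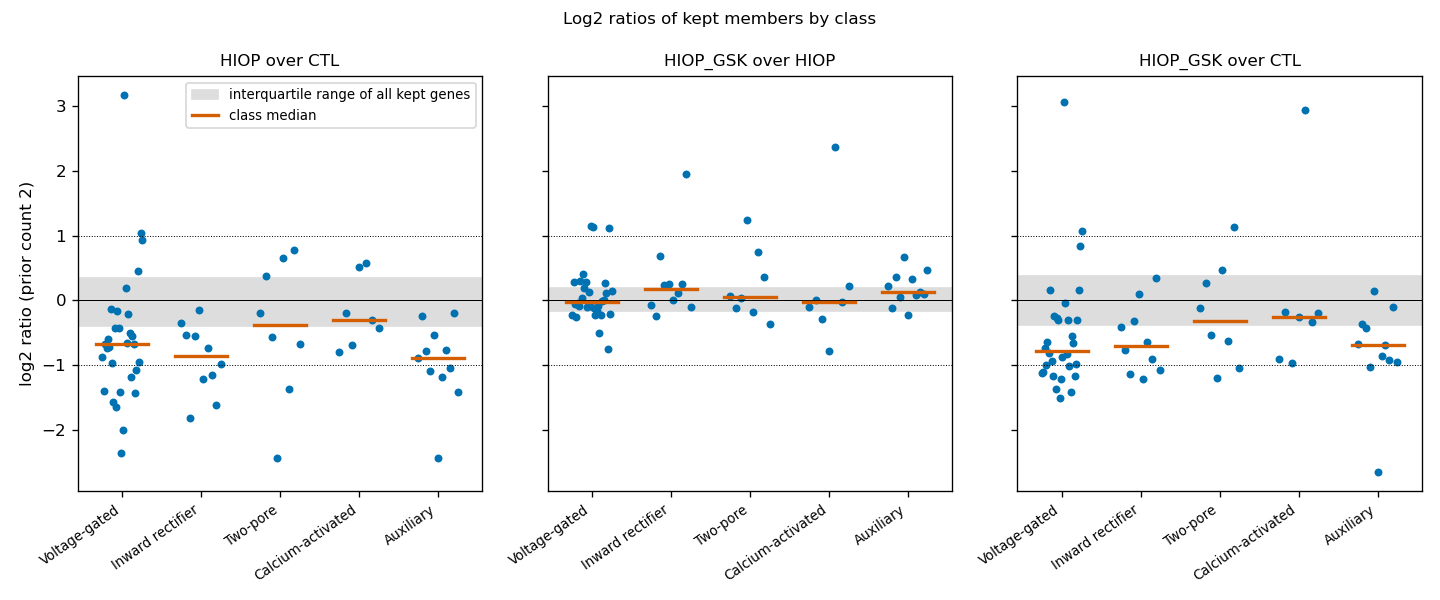
Log2 ratios of the 66 compared members by class in the 3 comparisons, with 1 point per gene, the class median as a bar, the interquartile range of all compared genes in grey and 2-fold limits dotted. In HIOP over CTL the medians run from -0.31 for calcium-activated channels to -0.89 for auxiliary subunits. The 3 comparisons share libraries.

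Set side by side in HIOP over CTL, the class medians were -0.89 for auxiliary subunits, -0.86 for inward rectifiers, -0.67 for voltage-gated subunits, -0.38 for two-pore channels and -0.31 for calcium-activated channels. The share lower by 2-fold or more was 45.5% of auxiliary, 40.0% of inward rectifier, 30.0% of voltage-gated and 2 of 8 two-pore genes, and 0 of 7 calcium-activated genes, against 8.04% of all genes compared. In HIOP_GSK over CTL the medians were -0.78 for voltage-gated, -0.70 for inward rectifier, -0.69 for auxiliary, -0.33 for two-pore and -0.26 for calcium-activated genes. Without the filter on low counts the two-pore median of that comparison was 0.07, on the other side of 0. In HIOP_GSK over HIOP they lay between -0.03 and 0.17. No test of a difference between classes was possible with 1 library per group, and classes of 7 to 11 compared genes have wide spreads.

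In HIOP_GSK over HIOP, 9.09% of the 66 members were higher by 2-fold or more and none lower by 2-fold or more. Over all compared genes these shares were 4.56% and 1.69%. The 6 genes higher by 2-fold or more in HIOP_GSK than in HIOP were Kcnn4, Kcnj8, Kcnk2, Kcng1, Kcng2 and Kcns2, all with at most 64 counts in either library. Kcnn4 had entered the comparison only through HIOP_GSK. The interval of Kcng2, 2.70 (0.885 to 9.78), included 1, and that of Kcng1, 2.57 (1.001 to 7.39), reached almost down to it. Kcns2 had a ratio of 2.32 (1.26 to 4.41). Of these 6, Kcnj8 and Kcns2 had a count in HIOP_GSK above their count in CTL as well as above that in HIOP, as did Kcnn4, whereas Kcnk2, Kcng1 and Kcng2 stayed below CTL. For 43 of the 66 members the counting interval of HIOP_GSK over HIOP included 1, and it lay above 1 for 16 and below 1 for 7.

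**Figure D5:**
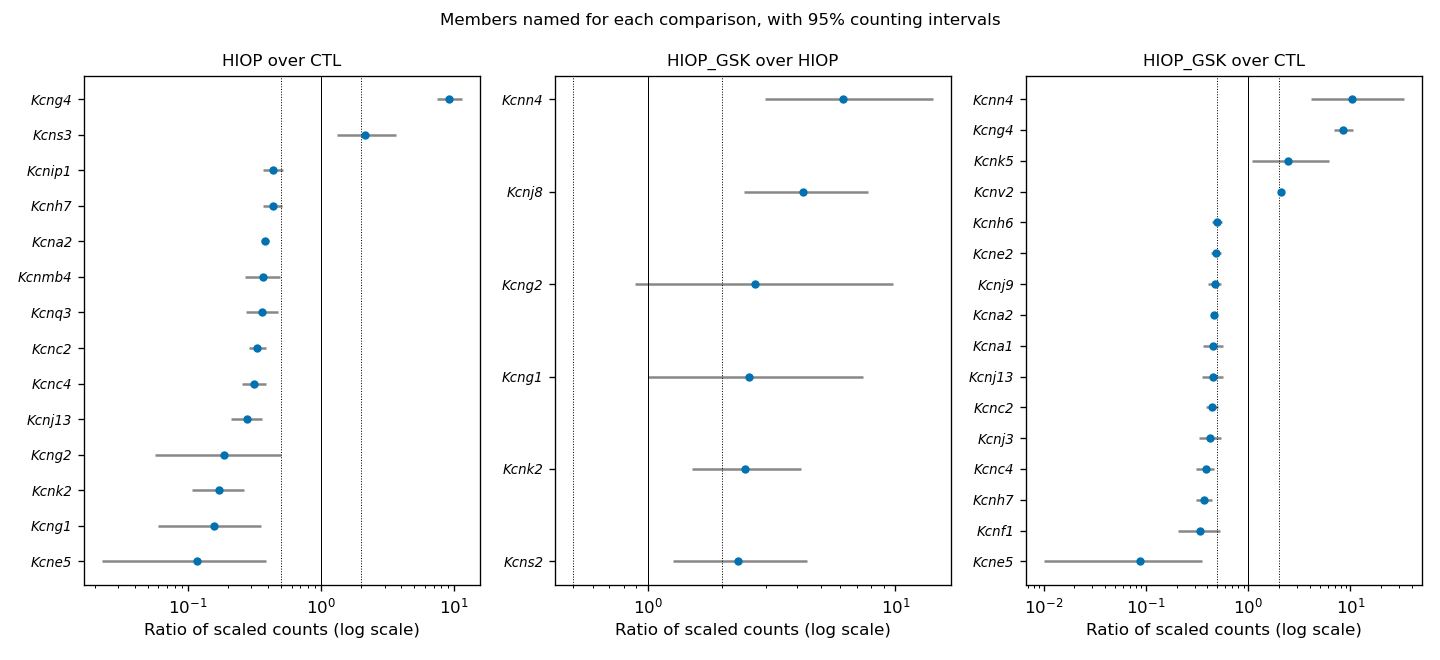
Ratios of scaled counts with 95% counting intervals, on a log scale, for the members past 2-fold that were named in each comparison (up to 12 in each direction). Kcng4 lies at 9.21 in HIOP over CTL, and Kcnn4 at 6.13 in HIOP_GSK over HIOP with an interval of 2.98 to 14.2.

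The limit of 2-fold separated close values. In HIOP over CTL, Kcnip4 was just past it at a log2 ratio of -1.05 and Kcnj9 just short of it at -0.98, and on the other side Kcns3 stood at 1.05 and Kcnv2 at 0.93. In HIOP_GSK over CTL, Kcnh6 stood at -1.01 and Kcna4 at -0.998. The 24 members that were not compared had at most 16 counts in any library, and Kcna10, Kcnk18 and Kcnmb3 had none in all 3. Among these 24 was Kcnq1 (Kv7.1), the cardiac and epithelial Kv7 channel, with 13 counts in HIOP_GSK, 16 in HIOP and 1 in CTL. Kcnk6 had 3 counts in HIOP_GSK, 0 in HIOP and 2 in CTL.

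Other genes of potassium handling were read from a list of 28 genes, of which 27 were found and 23 compared. In HIOP over CTL 6 were lower by 2-fold or more and 1 higher by 2-fold or more, with a median log2 ratio of -0.44. Over all compared genes these shares were 8.04% and 9.0%. Dpp6 and Dpp10, partners of Kv4 channels, were 2.02-fold (1.87 to 2.19) and 2.97-fold (2.09 to 4.30) lower in HIOP than in CTL. Lrrc55, a gamma subunit of BK channels, had 11 counts in HIOP_GSK, 12 in HIOP and 46 in CTL. Slc12a4, a potassium-chloride cotransporter, was the 1 gene higher by 2-fold or more, with 532 counts in HIOP_GSK, 625 in HIOP and 183 in CTL. In HIOP_GSK over HIOP 2 genes of this list, Kcnj10 and Abcc9, were higher by 2-fold or more and none lower by 2-fold or more. The background of that comparison was 4.56% higher and 1.69% lower, and a list this small does not set these counts apart from it.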

How the data were processed

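Per the file headers, the tables hold counts and TPM, both as deposited by the authors, for 32883 genes. The submitters' processing notes name STAR 2.5.4b, RSEM 1.3.1 and the rat build Rnor_6.0 without saying which made which values. Overlapping and antisense genes are uncertain, because the strand setting of the counting is not given in the sources used here. The deposited counts are whole numbers without normalization, and the deposited TPM sum to 1 fixed total per library.

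Library sizes were scaled by TMM in edgeR 4.0.16 (R 4.3.3). Genes reaching 1 CPM in 1 or more libraries were compared on log2 CPM, using a prior count of 2. Ratios of named genes carry no prior. The functions were tested on simulated counts. Named members were, per comparison, the up to 12 past 2-fold in each direction whose interval bound lay farthest from no difference, the 3 highest TPM per class and a list with known roles. Kcnk4, Kcnj6 and other members outside this rule were chosen after their values were seen, as were the split into modifier and pore-forming subunits and the motifs. The members and lists were chosen with earlier results of these data known. Kcnb2 and Kcnd2 were not analysed here. Some members are left out of the text. Alternatives were other scalings (including the size factors of DESeq2 1.42.0), the deposited TPM with a pseudocount of 0.5, other filters, prior counts and fold limits.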

Additional observations from a re-analysis of the deposited data

How the results depend on the processing

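In HIOP over CTL every class median stayed below 0 under all settings. All 15 class medians stayed between the medians of their genes' interval bounds under other scalings, filters, priors and the deposited TPM. That band is wide enough to hold a change of sign. The TMM factors lay between 0.994 and 1.006, so leaving TMM out could hardly move a median. Against CTL, the 1 class median to change sign was the two-pore median in HIOP_GSK over CTL, -0.33 as reported and 0.07 without the filter on low counts. With the deposited TPM the median log2 ratio of all compared genes was -0.08 in HIOP over CTL. The number of members at least 2-fold higher was small and moved. In HIOP over CTL it was 1 with the deposited TPM, with a CPM of at least 5 and with a prior count of 10. In HIOP_GSK over HIOP it was 3, 1 and 3 under these settings. In HIOP_GSK over CTL it was 2 with TPM and with a CPM of at least 5. With the deposited TPM, 6.67% of all compared genes were higher by 2-fold or more in HIOP over CTL. That share was 3.46% in HIOP_GSK over HIOP and 8.2% in HIOP_GSK over CTL. At a limit of 1.5-fold, 5 members were higher and 37 lower in HIOP over CTL, 2 were lower in HIOP_GSK over HIOP and 36 lower in HIOP_GSK over CTL. At 3-fold, 1 was higher and 7 lower in HIOP over CTL, and 2 were higher in HIOP_GSK over HIOP. In HIOP_GSK over CTL 2 were higher and 1 lower at 3-fold. For these limits, that filter and that prior count, the share of all genes was not computed, so the counts stand without a background. The other 43 of 60 recomputed counts stayed within 1.5 times the reported one, and no named ratio past 2-fold changed sign. No paired analysis was possible because each group has 1 library. Depth limits members with few counts: a count of 0 allows up to 3 counts, or 0.197 CPM in HIOP_GSK, 0.175 in HIOP and 0.186 in CTL.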
